A study of Homo sapiens with 9 samples.

Results

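Of the many genes that ERK switches on at the level of transcription, 10 are described here: the ETS factors ETV1, ETV4 and ETV5, the early factors EGR1, FOSL1 and MYC, the cyclin CCND1, and PHLDA1, IER3 and PLK2. Every probe annotated with 1 of these symbols was taken, which gave 14 of the 47322 probes on the array. For 9 of the 10 genes a probe lay above background often enough to be tested, beside 13769 genes tested in all. ETV1 was the gene that did not pass.

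The cells were H3122, a human lung adenocarcinoma line whose growth is driven by the EML4-ALK fusion kinase, here the E13;A20 form, in which exon 13 of EML4 is joined to exon 20 of ALK. PF1066R is an H3122 line made resistant to the ALK inhibitor crizotinib, which the labels call PF1066, and X376R is one made resistant to the ALK inhibitor X-376. Parental is the H3122 line they came from, sensitive to both inhibitors, and all of the lines carry the fusion. Each line was measured on 3 Illumina bead arrays. There is 1 resistant line per inhibitor, so inhibitor and line cannot be told apart. The labels do not say whether inhibitor was in the medium at lysis or whether a line's 3 samples came from separate cultures. The p-values therefore measure only how these samples vary, and that variation may be technical.

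ERK is the last kinase of the RAS, RAF and MEK cascade, which active ALK feeds. In the nucleus it phosphorylates factors such as ELK1, which with SRF switches on immediate early genes, EGR1 among them, within minutes of a stimulus. Other genes follow more slowly and need steady ERK activity, among them ETV4, ETV5 and the feedback phosphatases DUSP5 and DUSP6. Transcripts of this kind are widely read as a measure of ERK output in tumour cells, and they drop when a driver kinase is blocked.

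The sequence just upstream of a gene is shown for the members where RefSeq (build GRCh38.p14) gave a window and the array gave a test, so that elements known from ERK-regulated promoters can be seen beside the changes. Windows were at hand for 4 of the 10 members, ETV1, EGR1, PHLDA1 and PLK2. Each runs over the 250 bases before the annotated start, 5′ to 3′ on the gene's strand, and capitals mark matches to the motifs searched. EGR1 lies at chr5:138465229-138465478 on the plus strand, PHLDA1 at chr12:76031777-76032026 on the minus strand and PLK2 at chr5:58460087-58460336 on the minus strand.
EGR1: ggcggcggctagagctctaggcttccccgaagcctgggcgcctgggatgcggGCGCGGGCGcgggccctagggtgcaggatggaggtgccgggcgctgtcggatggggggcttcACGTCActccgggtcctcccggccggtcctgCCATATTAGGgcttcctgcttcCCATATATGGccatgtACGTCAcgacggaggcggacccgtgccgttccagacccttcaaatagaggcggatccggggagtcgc
PHLDA1: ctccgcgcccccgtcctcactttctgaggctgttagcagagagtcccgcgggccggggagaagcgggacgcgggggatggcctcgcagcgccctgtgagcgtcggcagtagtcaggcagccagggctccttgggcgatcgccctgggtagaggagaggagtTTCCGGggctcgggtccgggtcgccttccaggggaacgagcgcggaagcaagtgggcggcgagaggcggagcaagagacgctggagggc
PLK2: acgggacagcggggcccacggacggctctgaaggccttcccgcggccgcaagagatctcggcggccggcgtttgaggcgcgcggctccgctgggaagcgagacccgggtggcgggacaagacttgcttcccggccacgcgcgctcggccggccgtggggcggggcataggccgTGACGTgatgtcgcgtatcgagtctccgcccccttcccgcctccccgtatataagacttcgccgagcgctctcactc
Searched on both strands were the CArG box that SRF binds, the ETS core CCGGAA, the AP-1 site TGANTCA, the cyclic AMP response element core TGACGT, the EGR site GCGNGGGCG and the E-box CACGTG. The EGR1 window held 2 CArG boxes, which start 105 and 83 bases before the gene, 2 response element cores and 1 EGR site. PHLDA1 had 1 ETS core, read on the opposite strand, and PLK2 had 1 response element core. No match overlapped another in these windows. Of 35116 such windows in the table, 1.16% held a CArG box, 14.5% the ETS core, 6.57% the AP-1 site, 7.1% the response element core, 8.41% the EGR site and 6.34% the E-box. ETV1 has 6 annotated windows, of which 3 held the ETS core. Among these, the windows that begin at 13990703 and 13990707 on chromosome 7 overlap and hold the same site. These matches describe letters and not binding. Windows for ETV4, ETV5, FOSL1, MYC, CCND1 and IER3 were not used here.

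Mean probe signal was 201 ± 30.4 units in PF1066R, 173 ± 9.09 in X376R and 255 ± 37.9 in Parental (SD, n = 3 arrays each), so the resistant lines were dimmer on average before normalization, although PF1066R replicate 1 was as bright as Parental replicate 1. The share of probes above background was 36% to 65.9% per array. At least 9 of 10 epithelial markers, among them NKX2-1, EPCAM and KRT7, were above background on all arrays of each line. The exceptions were CLDN4 in X376R and NAPSA in Parental. The immune genes PTPRC, CD3E and LYZ and the fibroblast genes DCN, FAP, PDGFRA, PDGFRB and THY1 did not pass on all arrays of any line. Markers that did so in every line were CD14 and CD68, 2 of 5 immune markers, and COL1A1 among 9 fibroblast markers. The summed signal of the endothelial list was 443 to 589.5 units in PF1066R, 548.9 to 589.7 in X376R and 415.8 to 464.4 in Parental. In it CDH5 was higher by 1.38 in PF1066R and by 2.21 in X376R on the log2 scale than in Parental, where it was above background on 1 of 3 arrays (adjusted p = 1.02e-06 and 1.2e-09), while VWF, KDR and CLDN5 did not pass on all arrays of any line. COL1A1 was 1.76-fold higher in X376R (adjusted p = 7.12e-05). The part of these genes in the results was not tested. The number of arrays limits the precision, and log2 changes had a median SE of 0.12.

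Most of the members were lower in the resistant lines. In PF1066R 6 of the 9 tested members fell against Parental and 0 rose, where 9.37% of all genes tested fell and 9.09% rose. In X376R 7 fell and 0 rose, where 14.2% of all genes fell and 13.9% rose. All 3 arrays lay below all 3 of Parental for 6 members in PF1066R and 7 in X376R. Of all genes tested, 17.2% and 20.1% did so. PHLDA1 fell furthest in both lines, and EGR1, FOSL1, MYC, IER3 and ETV5 also fell in both. FOSL1 lay above background often enough to be tested only through its Parental arrays, where it was highest. With probes required above background on all 9 arrays, which leaves FOSL1 out, 5 members fell in PF1066R. ETV4 fell in X376R and not detectably in PF1066R, and CCND1 and PLK2 passed the test against Parental in neither. The median log2 change of the 9 members was -0.67 in PF1066R and -0.65 in X376R, beside medians of -0.01 over all genes in each comparison. Both comparisons use the same 3 Parental arrays, so their results are not independent. A lower transcript level in a population of cells can come from fewer cells that express the gene or from less RNA per cell, which these arrays cannot tell apart. Changes are log2 differences of background-corrected, quantile-normalized signal, tested with limma at a Benjamini-Hochberg adjusted p under 0.05 over all genes. With mean array brightness added as a covariate, 6 members were lower in PF1066R and 5 in X376R, where EGR1 (adjusted p = 0.114) and MYC (adjusted p = 0.0531) no longer passed.

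**Figure D1:**
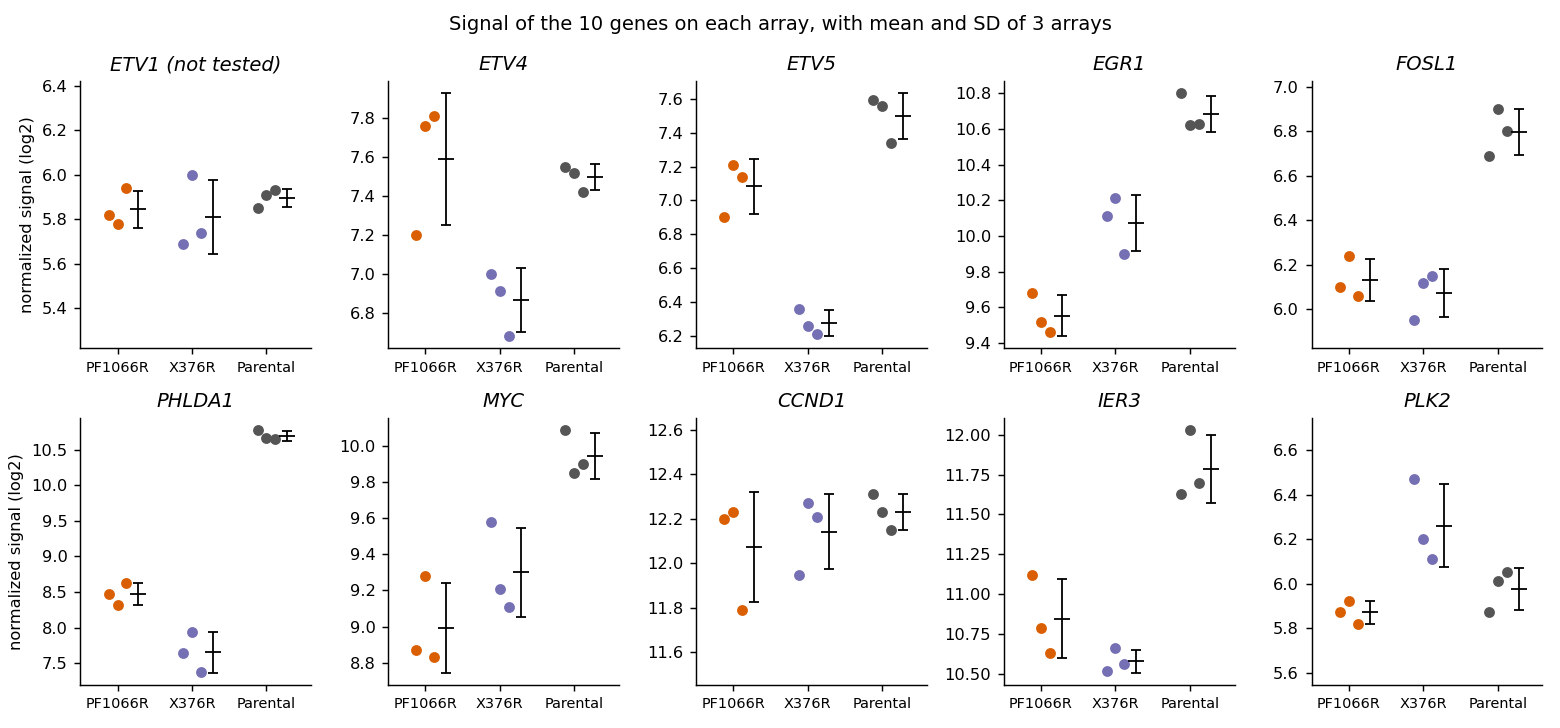
Normalized log2 signal (vertical axis, a separate scale for each gene) of the 10 genes on each array of PF1066R, X376R and Parental cells, with bars for the mean and SD of 3 arrays. PHLDA1, ETV5, EGR1, FOSL1, MYC and IER3 show all 6 arrays of the resistant lines below the 3 Parental arrays. CCND1 overlaps between lines and ETV1 stays below background. Over all genes tested, 17.2% had all 3 PF1066R arrays below all 3 Parental arrays, and 20.1% had all 3 X376R arrays below them.

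**Figure D2:**
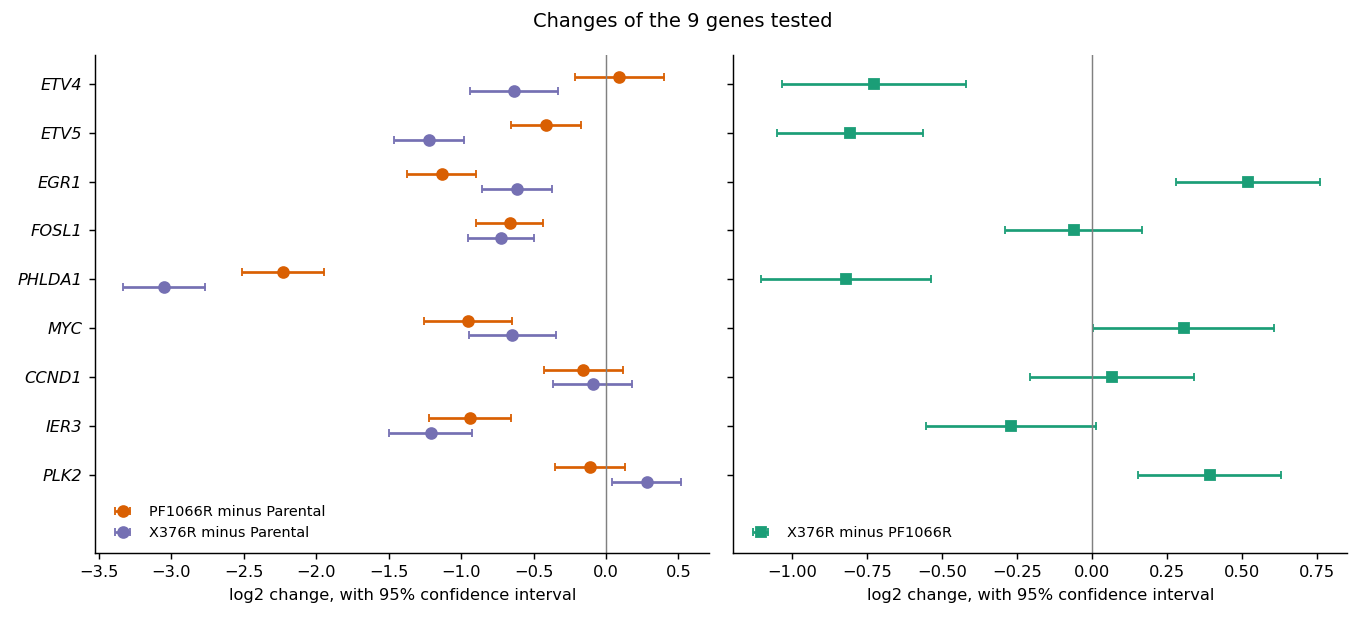
Log2 changes (horizontal axis) of the 9 tested genes with 95% confidence intervals, each resistant line against Parental on the left and X376R against PF1066R on the right. PHLDA1 lies furthest to the left, at -2.23 and -3.05. The intervals of ETV4 and PLK2 span 0 in PF1066R but not in X376R, with ETV4 lower and PLK2 higher there. Intervals are not adjusted for the number of genes, and PLK2 did not pass the adjusted test in X376R (adjusted p = 0.0749).

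ETV1, ETV4 and ETV5 form the PEA3 group of ETS transcription factors, which are induced by receptor kinase and ERK signalling. ETV5 read 6.90, 7.21 and 7.14 in PF1066R, 6.36, 6.26 and 6.21 in X376R and 7.59, 7.56 and 7.34 in Parental, as normalized log2 signal. The lines did not overlap: X376R was lowest, PF1066R came next and Parental was highest. ETV5 was 1.33-fold lower in PF1066R (log2 change -0.42 ± 0.12 SE, adjusted p = 0.0171) and 2.33-fold lower in X376R (-1.22 ± 0.12, adjusted p = 4.65e-07). The smaller of these changes depended on single arrays. It no longer passed without PF1066R replicate 1 (-0.32, adjusted p = 0.0956), Parental replicate 1 (-0.36, adjusted p = 0.0737) or Parental replicate 2 (-0.38, adjusted p = 0.0627). X376R was also lower than PF1066R, by 0.81 on the log2 scale (adjusted p = 8.9e-05).

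ETV4 read 7.20, 7.76 and 7.81 in PF1066R, 7.0, 6.91 and 6.68 in X376R and 7.55, 7.52 and 7.42 in Parental. All X376R arrays lay below all others, while the PF1066R arrays fell on both sides of Parental and had the widest spread. The log2 change was 0.09 ± 0.15 in PF1066R (adjusted p = 0.757), with a 95% confidence interval of -0.21 to 0.40. Its sign was the opposite without PF1066R replicate 3, at -0.02, with each array centred on its median, at -0.25, and with brightness as a covariate, at -0.14. In X376R ETV4 was 1.55-fold lower than in Parental (-0.63, adjusted p = 0.00301) and 1.66-fold lower than in PF1066R (-0.73, adjusted p = 0.00192).

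ETV1 is the third factor of the group. Its 1 probe was above background on 0 of 9 arrays, with deposited signals between 68.8 and 91.9 units, and it was not tested. Normalized signals were 5.82, 5.78 and 5.94 in PF1066R, 5.69, 6.0 and 5.74 in X376R and 5.85, 5.91 and 5.93 in Parental, so the lines overlapped. With no filter on dim probes the changes were -0.05 in PF1066R (adjusted p = 0.879) and -0.09 in X376R (adjusted p = 0.663).

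Counts in the wider ETS family depended on the scaling. Of 18 other ETS genes tested, 3 fell and 2 rose in PF1066R, where 9.37% of all genes fell and 9.09% rose. In X376R 4 fell and 1 rose, where 14.2% of all genes fell and 13.9% rose. The median log2 changes of the 18 were -0.11 and -0.10. With median centring 5 fell and 0 rose in PF1066R and 10 fell and 0 rose in X376R, and with brightness as a covariate 0 passed in PF1066R and 2 fell in X376R. SPDEF, an ETS factor of secretory epithelia, had a log2 change of -0.08 in PF1066R (adjusted p = 0.771) and fell by 1.79 in X376R (adjusted p = 1.23e-08). EHF, an epithelial ETS factor, fell in PF1066R (log2 change -0.51) and X376R (-1.28), the PF1066R call being lost with brightness as a covariate. ETS1 fell by 0.69 in PF1066R (adjusted p = 0.0207, lost with brightness as a covariate and in the authors' deposited log2 table) and did not pass in X376R (0.07, adjusted p = 0.854). ELF2 rose by 0.40 and 0.48 in PF1066R and X376R, calls that were lost with median centring, where the X376R sign turned, and with brightness as a covariate. The PF1066R call of ELF2 was also lost with a smaller normexp offset of 16.

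EGR1 is a zinc-finger factor and one of the first genes transcribed after ERK is activated. Its normalized signals were 9.68, 9.52 and 9.46 in PF1066R, 10.11, 10.21 and 9.90 in X376R and 10.80, 10.62 and 10.63 in Parental. The lines did not overlap, and here PF1066R was lowest and X376R lay between it and Parental. EGR1 was 2.20-fold lower in PF1066R (-1.14 ± 0.11, adjusted p = 2.21e-06) and 1.53-fold lower in X376R (-0.61 ± 0.11, adjusted p = 0.00053). X376R was higher than PF1066R by 0.52 (adjusted p = 0.00392), a difference that did not pass with each array centred on its median (0.22, adjusted p = 0.637). Its window above holds CArG boxes, which 1.16% of windows have. NAB1 and NAB2, co-repressors that bind EGR proteins, fell in both lines: NAB1 changed by -0.44 in PF1066R and -0.77 in X376R, and NAB2 by -0.61 and -0.74. The NAB1 call in PF1066R was lost with brightness as a covariate. The third gene of the EGR family list tested, EGR3, passed in neither line.

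FOSL1 encodes FRA1, a partner of JUN proteins in the AP-1 factor that builds up under lasting ERK activity. Its deposited signals were close to background: 92.0, 89.9 and 84.3 units in PF1066R, 78.5, 85.2 and 85.8 in X376R and 138, 149 and 178 in Parental. After normalization it read 6.10, 6.24 and 6.06 in PF1066R, 5.95, 6.12 and 6.15 in X376R and 6.69, 6.90 and 6.80 in Parental. Every resistant array lay below every Parental array, and the resistant lines overlapped each other. FOSL1 was above background on 2 of 3 arrays in PF1066R, 0 of 3 in X376R and 3 of 3 in Parental. It fell by 0.67 ± 0.11 in PF1066R (adjusted p = 0.000334). In X376R, where it was not above background, it was at least 1.57-fold lower than in Parental (adjusted p = 6.99e-05). That bound sets the mean of the bright line against the lowest signal that still counts as above background on the dim arrays. X376R and PF1066R did not differ detectably (-0.06, interval -0.29 to 0.17, adjusted p = 0.789).

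Among the other AP-1 genes some fell and others rose. Of 11 tested, 3 fell and 2 rose in PF1066R, where 9.37% of all genes fell and 9.09% rose. In X376R 5 fell and 4 rose, where 14.2% of all genes fell and 13.9% rose. The median log2 changes of the 11 were -0.27 and -0.11. With median centring 5 fell and 1 rose in PF1066R and 6 fell and 1 rose in X376R, and with brightness as a covariate 2 fell and 2 rose in PF1066R and 1 fell and 2 rose in X376R. JUNB fell in PF1066R (-1.32, adjusted p = 8.73e-07) and in X376R (-0.74, adjusted p = 0.000176). JUN rose by 0.86 and 1.13 in PF1066R and X376R (adjusted p = 0.000639 and 2.21e-05), although both calls were lost with median centring. BATF, better known from lymphocytes, rose by 0.92 in PF1066R and 0.85 in X376R and was above background on 1 of 3 Parental arrays. FOSB fell by 1.09 in PF1066R (adjusted p = 6.98e-05) and rose by 0.58 in X376R (adjusted p = 0.00733), and FOS fell by 0.48 in PF1066R (adjusted p = 0.0262) and rose by 0.67 in X376R (adjusted p = 0.00201). The X376R rises of FOS and FOSB were lost with median centring and with brightness as a covariate, and the PF1066R fall of FOS was lost with the smaller offset of 16 and with brightness. Between the lines FOS was higher in X376R than in PF1066R by 1.15 (adjusted p = 2.17e-05) and FOSB by 1.68 (adjusted p = 4.17e-07). MAFF fell by 1.00 in X376R (adjusted p = 0.000246) and ATF3 by 0.56 (adjusted p = 0.00612), both lost with brightness as a covariate.

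**Figure D3:**
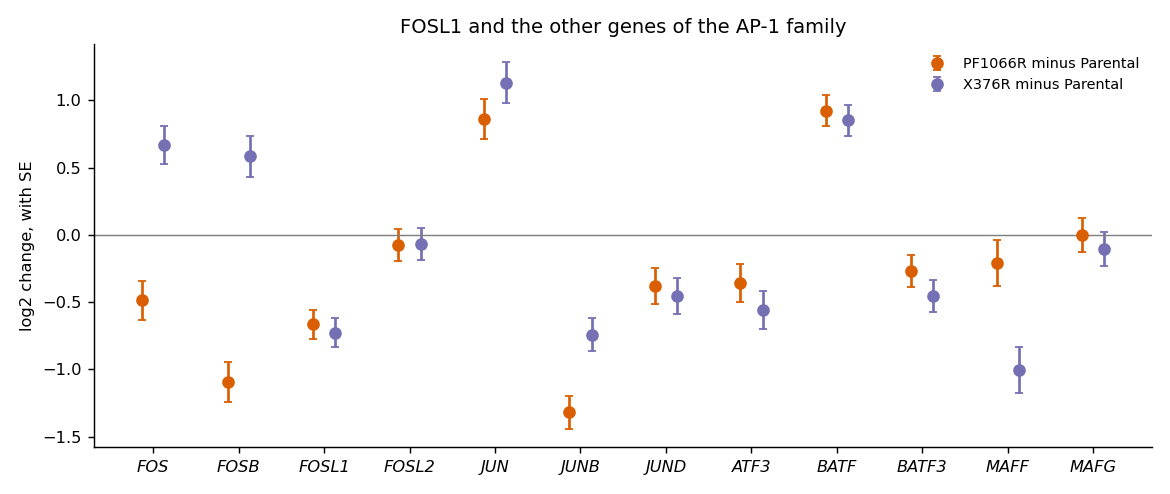
Log2 change with SE (vertical axis) of FOSL1 and the 11 other AP-1 genes tested, for PF1066R and X376R against Parental. FOSL1 and JUNB lie below 0 in both lines, JUN and BATF above 0 in both, and FOS and FOSB on opposite sides of 0 in the resistant lines.

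MYC, a factor that drives ribosome and metabolic genes and whose mRNA and protein are both short-lived, fell in both lines by its brighter probe. That probe read 8.87, 9.28 and 8.83 in PF1066R, 9.58, 9.21 and 9.11 in X376R and 10.09, 9.85 and 9.90 in Parental. Every resistant array was below every Parental array, and the resistant lines overlapped. MYC was 1.94-fold lower in PF1066R (-0.95 ± 0.14, adjusted p = 0.00016) and 1.57-fold lower in X376R (-0.65 ± 0.14, adjusted p = 0.00229). The second MYC probe read 7.92, 7.83 and 8.34 in PF1066R, 8.74, 8.44 and 8.50 in X376R and 8.66, 8.84 and 8.67 in Parental. It fell in PF1066R (-0.69, adjusted p = 0.00169 over all probes) but overlapped Parental in X376R (-0.16, adjusted p = 0.486). The lower MYC level in X376R therefore rests on 1 of 2 probes. Between the resistant lines the brighter probe did not pass (0.31, adjusted p = 0.177), whereas the second probe was higher in X376R (0.53, adjusted p = 0.0131).

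Among 21 tested genes that MYC is known to activate, 7 fell and 0 rose in PF1066R, where 9.37% of all genes fell and 9.09% rose. In X376R 8 fell and 0 rose, where 14.2% of all genes fell and 13.9% rose. The median log2 changes of the 21 were -0.30 and -0.29. ODC1, the first enzyme of polyamine synthesis, fell in PF1066R (-2.20, adjusted p = 1.25e-09) and in X376R (-2.09, adjusted p = 4.44e-10). It also stands in the list of delayed ERK targets. Factors of ribosome assembly were lower as well: the log2 changes in PF1066R and X376R were -1.08 and -1.07 for RRS1, -0.93 and -0.76 for NOP2, and -0.51 and -0.78 for RRP12. Brightness as a covariate removed the RRP12 call in PF1066R and the NOP2 call in X376R. LDHA, a glycolytic enzyme, had a log2 change of 0.17 in PF1066R (adjusted p = 0.396) and fell by 0.64 in X376R (adjusted p = 0.000462), lost with brightness. With brightness as a covariate 3 of the 21 fell in each line, and with median centring 11 and 18. Of 9 partners and rivals of MYC, 3 rose and 1 fell in PF1066R, where 9.09% of all genes rose and 9.37% fell. In X376R 3 rose and 2 fell, where 13.9% of all genes rose and 14.2% fell. With median centring 2 of the 9 rose and 3 fell in PF1066R, and 2 rose and 4 fell in X376R. Brightness as a covariate left 1 that rose and 1 that fell in PF1066R, and 1 that rose and 0 that fell in X376R. MXD4, a MAX partner that opposes MYC, rose by 0.63 in PF1066R and 1.03 in X376R, and MXD3 by 0.60 and 0.66. The PF1066R call of MXD4 was lost with median centring and brightness, and the X376R call of MXD3 with brightness. MLX fell in PF1066R (-0.46) and X376R (-0.42), and MXD1 fell in X376R (-0.61), both X376R calls being lost with brightness.

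CCND1 encodes cyclin D1, which activates CDK4 and CDK6 and carries cells into S phase. Its signals were 12.20, 12.23 and 11.79 in PF1066R, 11.95, 12.27 and 12.21 in X376R and 12.31, 12.23 and 12.15 in Parental. The 3 lines overlapped. The log2 change was -0.16 in PF1066R (adjusted p = 0.48, interval -0.43 to 0.12) and -0.09 in X376R (adjusted p = 0.687, interval -0.36 to 0.18). Scaling mattered for this bright probe. With each array centred on its median, a setting in which the median of all genes itself lay at -0.12 in PF1066R and -0.19 in X376R, CCND1 was lower by 0.58 (adjusted p = 0.0389) and by 0.86 (adjusted p = 0.00311). Without X376R replicate 1 the X376R change was 0.004, and without PF1066R replicate 3 the difference between the resistant lines turned to -0.07.

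Most genes that act beside cyclin D1 at the entry to S phase did not pass. Of 18 tested, 3 rose and 0 fell in PF1066R and 4 rose and 1 fell in X376R, where 9.09% and 13.9% of all genes rose, and the list's median, 0.04 and 0.16, fell below 0 with median centring. In that setting 1 rose and 3 fell in PF1066R and 1 rose and 2 fell in X376R. E2F2, an activator of S-phase genes, rose by 1.16 in PF1066R (adjusted p = 5.65e-07) and 1.15 in X376R (adjusted p = 2.31e-07). CCND3 rose by 0.76 in PF1066R (adjusted p = 0.000273), a call lost with median centring, and did not pass in X376R (0.18, adjusted p = 0.321). CDKN1A, the inhibitor p21, rose by 0.46 in X376R (adjusted p = 0.00914), lost with brightness and of opposite sign with median centring, and did not pass in PF1066R (-0.29, adjusted p = 0.127). CDKN1B, the inhibitor p27, fell by 0.46 in X376R (adjusted p = 0.0418), a call lost without background correction, in the authors' deposited log2 table and with brightness.

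PHLDA1, whose product limits receptor kinase signalling and which is transcribed under ERK control, changed most. It read 8.47, 8.31 and 8.63 in PF1066R, 7.64, 7.94 and 7.37 in X376R and 10.78, 10.67 and 10.65 in Parental. The lines stood well apart, X376R lowest and Parental highest. PHLDA1 was 4.69-fold lower in PF1066R (-2.23 ± 0.13, adjusted p = 6.22e-09) and 8.29-fold lower in X376R (-3.05 ± 0.13, adjusted p = 3.23e-11). It held place 7 from the bottom among 13769 genes in PF1066R and place 14 in X376R. X376R was below PF1066R by 0.82 (adjusted p = 0.000329). A second probe read 6.64, 6.60 and 6.51 in PF1066R, 6.23, 6.08 and 6.21 in X376R and 7.90, 7.82 and 7.67 in Parental, the same order of lines with smaller steps. Its changes were -1.21 (adjusted p = 4.61e-07 over all probes) and -1.62 (adjusted p = 4.5e-09), so the size of the fall depends on the probe. The related PHLDA2, an imprinted gene of placental growth, fell by 0.93 in PF1066R (adjusted p = 2.59e-05). It was above background on 0 of 3 X376R arrays (adjusted p = 1.05e-06 against Parental) and on 3 of 3 Parental arrays. PHLDA3 passed in neither line.

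IER3, an early response gene tied to cell survival and to ERK itself, read 11.12, 10.79 and 10.63 in PF1066R, 10.52, 10.66 and 10.56 in X376R and 11.63, 12.03 and 11.70 in Parental. All resistant arrays lay below all Parental arrays, and the resistant lines overlapped each other at 10.63 to 10.66. IER3 was 1.92-fold lower in PF1066R (-0.94 ± 0.13, adjusted p = 9.95e-05) and 2.31-fold lower in X376R (-1.21 ± 0.13, adjusted p = 3.15e-06). The resistant lines did not differ detectably (-0.27, interval -0.56 to 0.01, adjusted p = 0.21).

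PLK2, a polo-like kinase induced early after growth signals and also by p53, was above background on few arrays: 0 of 3 in PF1066R, 2 of 3 in X376R and 1 of 3 in Parental. It read 5.87, 5.92 and 5.82 in PF1066R, 6.47, 6.20 and 6.11 in X376R and 5.87, 6.01 and 6.05 in Parental. X376R lay above the others on every array, and PF1066R overlapped Parental. The change did not pass in PF1066R (-0.11, adjusted p = 0.596) or X376R (0.28 ± 0.11, adjusted p = 0.0749), although without X376R replicate 3 the change in that line passed (0.37, adjusted p = 0.0354). X376R was at least 1.12-fold higher than PF1066R (adjusted p = 0.0239). That call was lost without PF1066R replicate 1 (0.39, adjusted p = 0.0672), PF1066R replicate 3 (0.37, adjusted p = 0.0817) or X376R replicate 1 (0.29, adjusted p = 0.119), and with median centring (0.36, adjusted p = 0.093). PLK1 and PLK4, the other polo-like kinases tested, passed in neither line.

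**Figure D4:**
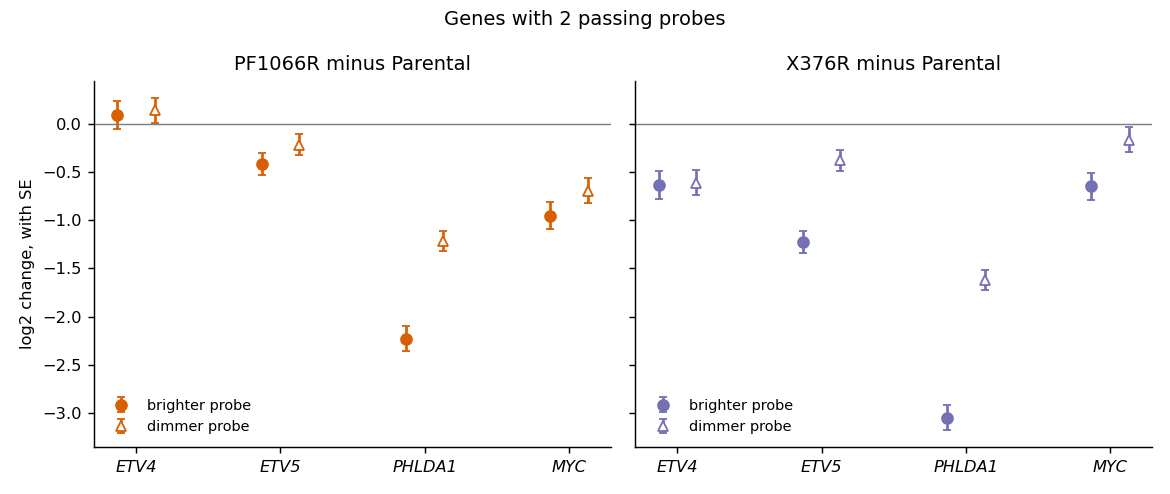
Log2 change with SE (vertical axis) of the brighter and the dimmer probe of ETV4, ETV5, PHLDA1 and MYC, for PF1066R and X376R against Parental. The probes of ETV4 nearly coincide, the dimmer PHLDA1 probe changes less, at -1.21 and -1.62, and the dimmer MYC probe lies near 0 in X376R, at -0.16.

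The probes of the remaining pairs gave the same signs. The second ETV4 probe changed by 0.15 in PF1066R (adjusted p = 0.601 over all probes) and by -0.61 in X376R (adjusted p = 0.00242). The second ETV5 probe was above background on 1 of 3 PF1066R arrays, 0 of 3 X376R arrays and 3 of 3 Parental arrays. It did not pass in PF1066R (-0.21, adjusted p = 0.256), and in X376R it was at least 1.08-fold lower than in Parental (adjusted p = 0.0198).

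Set against each other, X376R and PF1066R differed in 5 of the 9 members. PHLDA1, ETV5 and ETV4 were lower in X376R, where 8.08% of all genes tested were lower, and EGR1 and PLK2 were higher, where 7.92% of all genes were. ETV4, ETV5 and PHLDA1 thus stood lowest in X376R, and EGR1 stood lowest in PF1066R. FOSL1, MYC, CCND1 and IER3 did not pass between the lines. PLK2 was tested only because of its X376R arrays, where it was highest. The median log2 difference of the 9 members was -0.06.

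Several inhibitors that ERK itself induces were lower in the resistant lines. Of 11 feedback inhibitors tested, 6 fell and 1 rose in PF1066R and 9 fell and 0 rose in X376R, where 9.37% and 14.2% of all genes fell. The median log2 changes were -0.43 and -0.89. DUSP5, a nuclear phosphatase of ERK, fell in PF1066R (-1.98, adjusted p = 4.93e-08) and further in X376R (-3.28, adjusted p = 3.08e-11). DUSP6, its cytoplasmic counterpart, had log2 changes of -1.28 in PF1066R and -2.43 in X376R (adjusted p = 1.67e-06 and 2.76e-10). Both phosphatases were lower in X376R than in PF1066R, with differences of -1.30 for DUSP5 and -1.14 for DUSP6 (adjusted p = 4.06e-06 and 4.59e-06). ERRFI1, an inhibitor of EGFR, fell in PF1066R (-2.09) and in X376R (-1.96), and the lines did not differ detectably (adjusted p = 0.575). SPRY4, an inhibitor of receptor signalling, rose by 0.75 in PF1066R (adjusted p = 0.000605) and fell by 0.99 in X376R (adjusted p = 2.04e-05), and the difference of -1.75 between X376R and PF1066R passed (adjusted p = 4.27e-08). With brightness as a covariate 4 of the 11 fell in PF1066R and 5 in X376R.

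Slower targets of ERK outside the members also fell more often than they rose. Of 19 tested, 13 fell and 0 rose in PF1066R, where 9.37% of all genes fell and 9.09% rose. In X376R 10 fell and 4 rose, where 14.2% of all genes fell and 13.9% rose. The medians of the 19 were -0.51 and -0.39. HMGA1, a chromatin protein of proliferating and tumour cells, fell in PF1066R (-2.09, adjusted p = 4.15e-09) and X376R (-3.27, adjusted p = 4.32e-12). The secreted factor GDF15 fell in PF1066R (-0.51, adjusted p = 0.00682) and X376R (-3.17, adjusted p = 7.2e-12). The membrane protein EMP1 fell in PF1066R (-0.74, adjusted p = 0.000332) and X376R (-2.05, adjusted p = 1.29e-09). The 4 that rose in X376R were the adhesion receptor CD44 (1.19), the EGFR ligand HBEGF (0.94), the potassium channel KCNN4 (0.50) and the ephrin receptor EPHA4 (0.43). The calls of KCNN4 and EPHA4 were lost with brightness as a covariate, and that of KCNN4 also with median centring. In PF1066R CD44 fell by 0.71 (adjusted p = 0.00044), and HBEGF was lower too (adjusted p = 0.00504), with its probe above background on 0 of 3 PF1066R arrays.

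The balance of the other immediate early genes depended on the scaling. Of 20 tested, 6 fell and 2 rose in PF1066R, where 9.37% of all genes fell and 9.09% rose. In X376R 4 fell and 5 rose, where 14.2% of all genes fell and 13.9% rose. The medians of the 20 were -0.15 and -0.03. FOS, FOSB, JUN, JUNB, ATF3 and MAFF also stand in the AP-1 list above, so these counts are not separate from those. With median centring 9 fell and 0 rose in PF1066R and 9 fell and 1 rose in X376R, with medians of -0.44 and -0.41, and with brightness as a covariate 5 fell and 1 rose in PF1066R and 2 fell and 2 rose in X376R. CCN1, a matrix protein also known as CYR61 and a target of YAP as well as of SRF, rose by 2.71 in X376R (6.53-fold, adjusted p = 3.08e-11). In PF1066R it fell by 0.36 (adjusted p = 0.0402), a call lost without background correction, with cyclic loess and with brightness as a covariate. X376R exceeded PF1066R by 3.07 (adjusted p = 7.05e-12). The others that rose in X376R were FOS, FOSB, JUN and KLF6 (0.78, adjusted p = 0.000333), and in PF1066R the genes that rose were JUN and SGK1 (0.67, adjusted p = 0.00378). The calls of KLF6 and SGK1 were lost with median centring and with brightness as a covariate.

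Genes of the cascade itself, counted with nuclear factors such as SRF and with the phosphatase PTPN11, mostly did not pass. Of 14 tested, 1 rose and 1 fell in PF1066R, where 9.09% of all genes rose and 9.37% fell. In X376R 2 rose and 1 fell, where 13.9% of all genes rose and 14.2% fell. The medians of the 14, 0.15 and 0.07, fell below 0 with median centring. In that setting 0 rose in either line, 1 fell in PF1066R and 4 fell in X376R. MAPK3, which encodes ERK1, rose by 0.69 in PF1066R (adjusted p = 0.00029) and 0.85 in X376R (adjusted p = 1.81e-05), both calls lost with median centring. SRF fell by 0.39 in PF1066R (adjusted p = 0.0128), lost with the offset of 16 and with brightness, and did not pass in X376R (-0.24, adjusted p = 0.0988). PTPN11, the phosphatase SHP2 that links receptors to RAS, fell by 0.57 in X376R (adjusted p = 0.0129), a change whose sign turned with brightness as a covariate. RPS6KA1, a kinase downstream of ERK, rose by 0.33 in X376R (adjusted p = 0.031), and its sign turned with median centring.

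**Figure D5:**
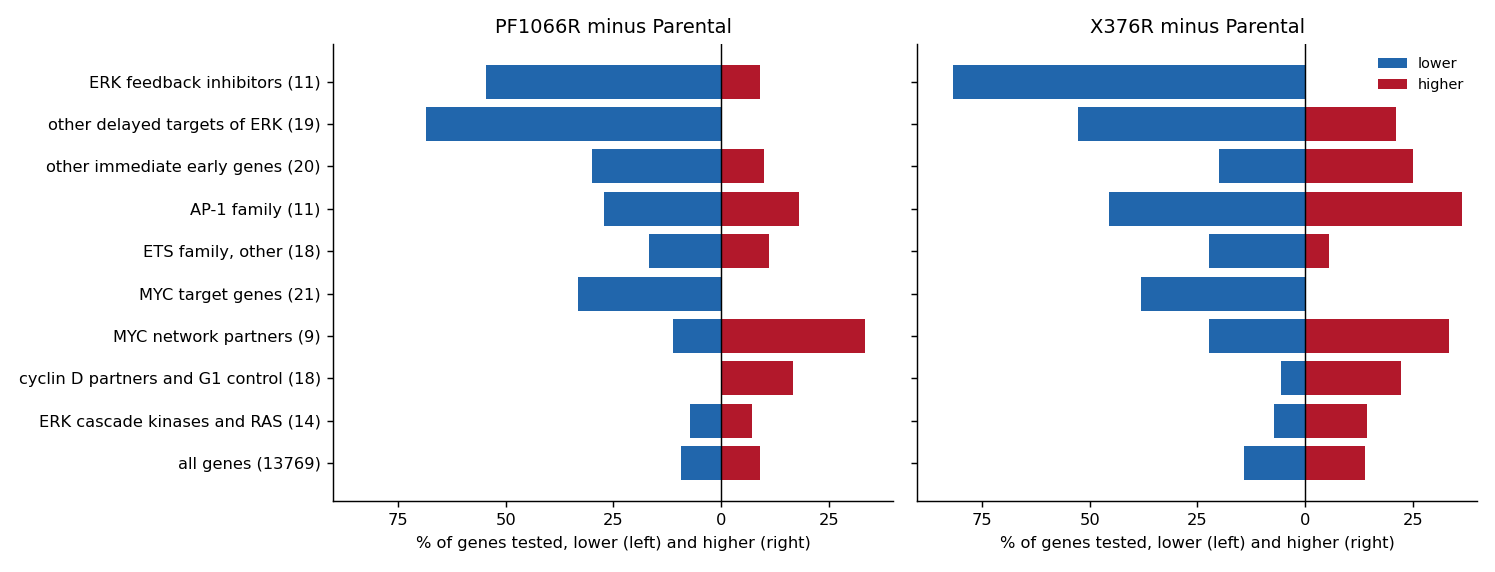
Share of tested genes that fell (blue, left of 0) or rose (red, right of 0), in percent, for 9 lists and for all genes, in PF1066R and X376R against Parental. Feedback inhibitors and delayed targets lean left in both lines, with 6 of 11 and 13 of 19 lower in PF1066R and 9 of 11 and 10 of 19 in X376R, while all genes are nearly balanced.

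For each member tested, the gene outside the members whose pattern over the 9 arrays was most like it was sought. It was the gene with the smallest root mean square log2 difference after centring each gene on its own mean. PHLDA1 was closest to IGFBP3, a binding protein of insulin-like growth factors, at 0.167. IGFBP3 itself had log2 changes of -2.29 in PF1066R and -3.27 in X376R. ETV5 was closest to ST6GALNAC4 (0.101), ETV4 to HK1 (0.0942), EGR1 to QPCT (0.0991), MYC to EHD1 (0.148) and IER3 to LGALS7B (0.127). FOSL1 was closest to BMP6 (0.0674), CCND1 to CIAO2B (0.0654) and PLK2 to COL6A1 (0.0494). BMP6 was above background on 0 of 3 arrays in PF1066R and 0 of 3 in X376R. For comparison, the members varied around their own means by between 0.158 for CCND1 and 1.30 for PHLDA1.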

How the data were processed

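Total RNA of 9 H3122 samples, 3 each of PF1066R, X376R and Parental, was hybridised to Illumina bead arrays. The labels' protocols name Trizol extraction, RNeasy clean-up with DNase I, and biotinylated cRNA from the MessageAmp kit. One deposited table gives a linear intensity for each probe and array, and how beads were summarized was not given in the sources used here. Another table deposited by the authors gives normalized log2 values, and the submitters' processing notes name R 2.15. In the log2 table the replicate 1 columns vary differently, so it served as an alternative only.

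Intensities were corrected with limma 3.58.1 (R 4.3.3) by normexp with an offset of 50, quantile-normalized and put on the log2 scale. The table has no detection p. A probe passed if it exceeded the highest of 92 external control probes, taken as such from their range of IDs by knowledge of the platform, on at least 3 of 9 arrays. A probe can pass through the line where it is bright. FOSL1, PHLDA2 and the second ETV5 probe passed only with the Parental arrays. Of 47322 probes with values, 30112 had 1 gene symbol, 8 several and 17202 none in the platform annotation, and 30073 matched the GRCh38.p14 reference table. The filter left 26814 probes, 18575 of them named, and each gene was represented by its brightest passing probe on average, for 13769 genes. The limma fit used all 9 arrays and estimated a mean for each line, with moderated two-sided tests and Benjamini-Hochberg adjustment over all genes, or over all probes where a second probe is given. The threshold was an adjusted p under 0.05. The fit had 6 residual and 10.68 prior degrees of freedom. These steps were tested on simulated data with noise drawn independently for each probe and array, and no value here rests on that test. No interval or limit from counts applies to arrays, and the number of arrays limits the precision.

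The members and gene lists were chosen with earlier results of these data known, so no list count is independent evidence. The text names the 10 members and up to 4 genes of each list past the threshold in either resistant line with the largest changes. It also names lists of 5 or fewer called genes in full, and for each member the gene outside the members closest over the 9 arrays. Alternatives covered background correction, normalization, the filter, the choice of probe, the variance model, array weights, a replicate block, brightness and leaving out each array. The labels do not say what a replicate number marks, so the main fit has no block.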

Additional observations from a re-analysis of the deposited data

Results flagged for a closer look

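Under the test of X376R against PF1066R, 5 of the 9 members differed between the resistant lines. ETV4 (-0.73), ETV5 (-0.81) and PHLDA1 (-0.82) were lower in X376R on the log2 scale. All 3 X376R arrays lay below all 3 PF1066R arrays, as for 15% of all genes tested. EGR1 (0.52) and PLK2 (0.39) were higher in X376R, with all 3 arrays above those of PF1066R, as for 14.2% of all genes. The EGR1 difference did not pass with median centring (0.22, adjusted p = 0.637). PLK2 was above background on 0 of 3 PF1066R and 2 of 3 X376R arrays, and its call was lost in 4 of 22 alternatives. It met the filter only with its X376R arrays, where it was highest. Each line stands for 1 derivation, so these differences are between 2 lines and not between inhibitors.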

How the results depend on the processing

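Of 615 recomputed values of single members, 591 kept their direction and their side of the threshold, 10 lost the threshold, 6 gained it and 8 changed sign, all 8 in changes that did not pass in the reported fit. PHLDA1, FOSL1 and IER3 kept their calls against Parental in both lines under every alternative run that tested them. For ETV4 in PF1066R the log2 change was -0.251 with each array centred on its median, -0.135 with brightness as a covariate and, with 1 array left out, between -0.02 (without PF1066R replicate 3) and 0.287. CCND1 changed sign in X376R without X376R replicate 1, with a range of -0.154 to 0.004 over arrays left out. Between the resistant lines it changed sign with median centring (-0.279) and without PF1066R replicate 3, with a range of -0.073 to 0.16. FOSL1 changed sign between the resistant lines in the authors' deposited log2 table (0.005) and without X376R replicate 1, with a range of -0.103 to 0.003. MYC passed between the resistant lines when its probes were averaged (0.418, adjusted p = 0.0149). The causes were not tested.

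With brightness as a covariate, which takes a degree of freedom and differs between the lines, 1254 genes passed in PF1066R, against 2541 in the reported fit, and 1395 in X376R, against 3860. With median centring 978 genes passed between the resistant lines, against 2204. In X376R 1 member rose, against 0, with a normexp offset of 16 and with an intensity trend and robust eBayes, in each case PLK2. Between the resistant lines 0 members were higher in X376R with median centring and 1 with the filter set to all 9 arrays, against 2. Leaving out 1 array at a time gave 5 to 6 members lower in PF1066R, 7 lower and 0 to 1 higher in X376R, and 3 lower and 1 to 2 higher in X376R than in PF1066R. With the reported fit counted in, the counts of all genes ranged from 1858 to 2801 in PF1066R and 3071 to 3860 in X376R. Between the resistant lines they ranged from 1610 to 2204. The upper ends in X376R and between the resistant lines equal the counts of the reported fit.

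Residuals of samples with the same replicate number correlated at -0.05 to 0.22 between lines, over 0.1 in 5 of 9 pairs. With different numbers the range between lines was -0.23 to 0.14. Of the 9 arrays, 5 correlated best with their own number. Whether the numbers pair the samples is not settled by these values, and the reported fit did not use them. With the replicate number as a block, 2879 genes passed in PF1066R, 4173 in X376R and 2469 between the resistant lines, with the same counts of members as without it. Signals near background limit ETV1, FOSL1, PLK2 and the second ETV5 probe.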
